A study of Mus musculus with 18 samples.

Results

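The lipid droplet storage and lipolysis genes analysed here were 10 genes chosen by name, Plin2, Plin3, Plin4, Plin5, Dgat1, Dgat2, Pnpla2, Abhd5, G0s2 and Hilpda, which were found by symbol among the 55414 genes of the count table. Of the 10 genes, 9 were among the 21772 genes tested, and Plin5 had too few counts. The study asked how loss of the kinase Erk3, or of its partner Mk5, alters muscle cells with and without an excess of fatty acid. RNA was sequenced from C2C12 cells, an established mouse myoblast line that fuses into myotubes. At confluence the cells received a pool of siRNAs that was non-targeting (siNtc), or directed against Erk3 (gene symbol Mapk6; siErk3) or Mk5 (Mapkapk5; siMk5). After 6 days of differentiation they spent 16 h without serum, either with bovine serum albumin alone (BSA) or with palmitic acid at 0.5 mM carried on it (PA). The 6 groups were therefore siNtc BSA, siErk3 BSA, siMk5 BSA, siNtc PA, siErk3 PA and siMk5 PA, with 3 libraries each and 18 in total. Every group was serum-free, transfected and of the same line, and the silencing was transient and partial. Nothing in the labels says whether the libraries of a group came from separate cultures, so that the p-values measure only the spread between these libraries.

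Lipid droplets are the organelles in which cells keep neutral fat, mostly triglyceride. Acyl-CoA:diacylglycerol acyltransferases, encoded by Dgat1 and Dgat2, perform the last step of triglyceride synthesis, and perilipins, encoded by the Plin genes, coat the droplet surface. Adipose triglyceride lipase, encoded by Pnpla2, starts the breakdown of stored triglyceride with its co-activator Abhd5, whereas the small proteins encoded by G0s2 and Hilpda bind this lipase and inhibit it. In muscle, the droplets hold fuel for the mitochondria and buffer incoming fatty acids.

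The total count per library ranged from 13041979 to 28496727, with siNtc BSA replicate 1 the lowest. Every pair of libraries within a group differed by more than sampling noise, with a chi-square per degree of freedom between 2.93 and 56.2. Levels are given as CPM, that is, read pairs scaled by library size with TMM factors, and levels of different genes are compared only per kilobase of exon (RPKM). A gene was called changed with a false discovery rate (FDR) below 0.05 in the quasi-likelihood test of edgeR, adjusted over all genes tested, together with a fold change, up or down, of more than 1.3. With siErk3, Mapk6 was lower than in siNtc of the same medium by a log2 fold change of -1.20 in BSA and -0.95 in PA, and both passed. In siNtc, PA itself raised Mapk6 from a mean of 132 CPM to 232 CPM (log2 fold change 0.81, FDR = 2.11e-13). With siMk5, Mapkapk5 was lower by -0.61 in BSA (FDR = 0.469) and -0.49 in PA (FDR = 0.469), and neither passed, so that the siMk5 groups had no called reduction of their target transcript. Mapkapk5 was scarce, with a mean of 2.46 CPM in siNtc BSA and 3.24 CPM in siNtc PA. At the protein level, the paper reports from Western blots that both kinases were efficiently silenced for these experiments. In siNtc myotubes, PA raised 3 fatty acid responsive genes listed as a check of the treatment, Angptl4 by a log2 fold change of 4.09, Pdk4 by 1.61 and Cpt1a by 1.17.

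Markers of the cells were read in the same libraries. All 12 myotube markers were detected, and their summed level ranged from 11102 to 14011 CPM in BSA and from 10405 to 11861 CPM in PA, where 7, 5 and 4 of them were lower with siNtc, siErk3 and siMk5. The 6 markers of undifferentiated or cycling myoblasts summed to 870 to 944 CPM in BSA and to 363 to 479 CPM in PA. Of all genes tested, 30.6% changed in PA, up or down, with siNtc, 32.1% with siErk3 and 29.7% with siMk5. With each siRNA, 5 of the 6 myoblast markers were called lower in PA. For instance, Mki67, a marker of cycling cells, was 408 ± 6.34 CPM (SD, n = 3) in siNtc BSA and 187 ± 14.5 CPM (SD, n = 3) in siNtc PA. Among the 9 adipocyte markers, Plin1, Cidec and Cfd had 0 counts in all 18 libraries, and Adipoq, Fabp4, Lep, Retn and Adrb3 had 1 to 11 counts in total. Their summed level of 3.89 to 5.34 CPM in BSA and 6.21 to 8.20 CPM in PA was almost entirely Pparg, which rose in PA by a log2 fold change of 0.54 to 0.63. The summed myoblast and myotube markers were thus lower in PA than in BSA within each siRNA. Several lipid droplet genes also differed between the media, and the part of the markers in the results below was not tested. In bulk RNA, a smaller number of cells of one type cannot be told apart from less RNA per cell. Of the 12 myotube markers, 2 were called higher with siErk3 in BSA (Myh3 and Myh8) and 1 in PA (Myh8). With siMk5, 1 was called lower in BSA (Mb) and 1 in PA (Myh4). Beside these, 0.785% and 0.556% of all genes tested changed with siErk3 in BSA and PA, and 0.0643% and 0.547% with siMk5. Of the 6 myoblast markers, 0 were called in these comparisons.

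All members lie on autosomes, and their coordinates are those of the count table (GRCm39). Plin4 (chr17:56407591-56416803), Plin5 (chr17:56418601-56424596) and Plin3 (chr17:56584476-56599873) lie on the minus strand of chromosome 17, with a gap of 1797 bases between Plin4 and Plin5 and of 159879 bases between Plin5 and Plin3. Plin2 (chr4:86566623-86588297), Dgat1 (chr15:76386215-76396153), Dgat2 (chr7:98802865-98831926) and G0s2 (chr1:192954469-192955525) are also on the minus strand. Pnpla2 (chr7:141035111-141040656), Abhd5 (chr9:122180673-122210589) and Hilpda (chr6:29272487-29275445) are on the plus strand. No member shares exonic bases with another gene on its own strand, and the reads were counted by strand. On the opposite strand, 950 exonic bases of Abhd5 face A730085K08Rik and 17 of Plin4 face Hdgfl2.

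For 8 members, 10 windows of 250 bases ending just before a RefSeq transcription start were available, and each matched GRCm39 at 1 place. The windows of Plin2 and Abhd5, which rose in PA, and of G0s2, which fell, are shown with the matches to the searched motifs in capitals. Plin4 and Hilpda also rose, and their windows are not shown. Each runs 5′ to 3′ along the strand of its gene. The last base of the Plin2 window and the last bases of the Abhd5 and G0s2 windows lie inside the gene as the count table bounds it.
Plin2, chr4:86588297-86588546, minus strand: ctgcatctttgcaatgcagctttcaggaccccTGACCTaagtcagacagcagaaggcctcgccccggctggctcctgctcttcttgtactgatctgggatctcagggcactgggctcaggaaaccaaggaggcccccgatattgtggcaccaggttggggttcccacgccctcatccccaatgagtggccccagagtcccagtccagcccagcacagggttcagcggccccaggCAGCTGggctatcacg
Abhd5, chr9:122180431-122180680, plus strand: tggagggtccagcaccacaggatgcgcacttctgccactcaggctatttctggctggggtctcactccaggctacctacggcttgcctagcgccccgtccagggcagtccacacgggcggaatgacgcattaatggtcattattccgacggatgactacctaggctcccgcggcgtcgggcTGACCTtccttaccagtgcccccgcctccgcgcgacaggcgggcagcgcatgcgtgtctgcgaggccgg
G0s2, chr1:192955497-192955746, minus strand: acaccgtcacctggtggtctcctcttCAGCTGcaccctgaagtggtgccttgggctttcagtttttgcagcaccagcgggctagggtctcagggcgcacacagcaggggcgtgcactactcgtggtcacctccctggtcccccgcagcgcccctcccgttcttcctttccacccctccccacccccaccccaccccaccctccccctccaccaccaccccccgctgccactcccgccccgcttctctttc
The motifs searched on both strands were AGGTCA, the core that nuclear receptors bind, a direct repeat of that core spaced by any 1 base, ACGTG, the core of hypoxia response elements, GTAAACA, a FOXO motif, and CAGCTG, an E-box of the kind bound by myogenic factors. Counted back from the start, Plin2 holds AGGTCA, read on the opposite strand as TGACCT, at -218 to -213, and CAGCTG at -16 to -11. Abhd5 holds TGACCT at -69 to -64, and G0s2 holds CAGCTG at -224 to -219. Of the windows not shown, AGGTCA occurs in 1 window of Plin5 at -170 to -165. ACGTG occurs in the downstream window of Hilpda, a gene known to respond to hypoxia, at -43 to -39. The windows of Plin3, Plin4 and Pnpla2 and the remaining ones of Plin5 and Hilpda hold no match. Among all 32536 RefSeq windows of this length, AGGTCA occurs in 14.04%, its direct repeat in 0.0338%, ACGTG in 16.7%, GTAAACA in 3.17% and CAGCTG in 13.1%. The AGGTCA searched alone also counts any direct repeat, of which no member window has a match. These are matches of letters only, and no binding was measured.

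Per kilobase, the order of the members differed between the media. Over the 9 BSA libraries, G0s2 was highest with a median of 76.7 RPKM, followed by Plin3 (21.02) and Plin2 (20.4), whose ranges overlapped. Pnpla2 (8.43 RPKM) and Dgat1 (7.61) overlapped as well, as did Abhd5 (5.65) and Hilpda (5.01), and Dgat2 (0.752) and Plin4 (0.269) came last among the genes tested. Over the 9 PA libraries, Plin2 was highest with a median of 164 RPKM, from 143 to 193, above G0s2 at 39.4, from 30.7 to 45.4. Plin3 (20.9 RPKM) and Hilpda (14.9) overlapped there, as did Pnpla2 (9.80) and Abhd5 (9.48), which lay above Dgat1 (7.83) in each library. Plin4 (0.503) and Dgat2 (0.440) overlapped at the low end.

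With PA, 5 of the 9 tested members changed in siNtc myotubes, 6 in siErk3 myotubes and 6 in siMk5 myotubes. Over all genes tested, 30.6% changed in siNtc, 32.1% in siErk3 and 29.7% in siMk5. Plin2, Hilpda, Abhd5 and Plin4 rose with each siRNA and G0s2 fell with each, whereas Dgat2 was called lower with siErk3 and siMk5 only. The median of the absolute log2 fold changes of the 9 members was 0.71 in siNtc, 0.77 in siErk3 and 0.92 in siMk5, and that of all genes tested was 0.46, 0.47 and 0.45. Libraries of the 9 BSA and 9 PA samples did not overlap for Plin2, Abhd5, G0s2 and Hilpda. How many of all genes separate in this way was not counted, so that this only describes these members.

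**Figure D1:**
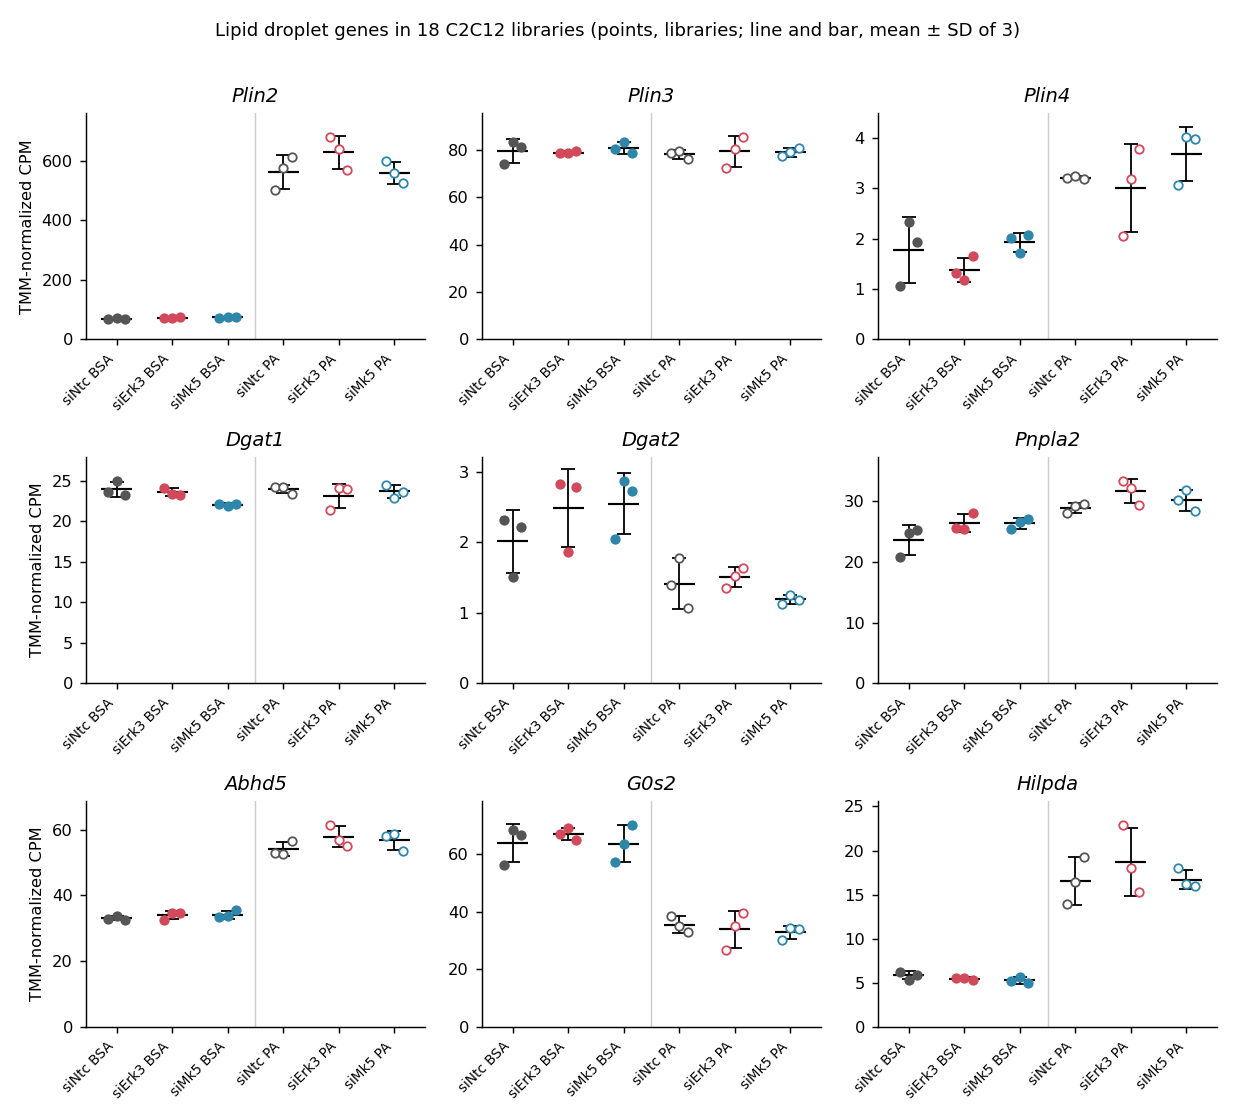
Levels of the 9 tested genes (TMM-normalized CPM, linear axis from 0) in the 6 groups, with BSA groups left of the grey line and PA groups right of it. Points are libraries, horizontal lines the mean of 3 and bars the SD. The PA libraries of Plin2 lie between 502 and 678 CPM and its BSA libraries between 67.3 and 75.6 CPM, whereas for Plin3 and Dgat1 the media overlap.

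Among the droplet coat genes, Plin2, the perilipin found on droplets of most tissues, rose with PA about 8-fold. In siNtc BSA its libraries had 67.3, 70.2 and 69.3 CPM, and in siNtc PA 502, 574 and 613 CPM. With siErk3 they had 70.8, 71.7 and 74.2 CPM in BSA and 678, 639 and 568 CPM in PA. With siMk5 they had 72.6, 74.8 and 75.6 CPM in BSA and 598, 559 and 524 CPM in PA. Each PA library was thus more than 6 times above each BSA library, although the PA libraries themselves ranged from 502 to 678 CPM. The log2 fold change was 3.03 in siNtc (standard error (SE) 0.07, FDR = 1.3e-25), 3.12 in siErk3 (SE 0.07, FDR = 4.04e-26) and 2.91 in siMk5 (SE 0.07, FDR = 2.67e-25).

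Plin3, a perilipin that exchanges between the cytosol and the droplet surface, was not called changed. It ranged from 74.0 to 83.6 CPM over the 9 BSA libraries and from 72.6 to 85.3 CPM over the 9 PA libraries, and the media overlapped throughout. The log2 fold change was -0.03 in siNtc (95% interval -0.14 to 0.08, FDR = 0.689), 0.01 in siErk3 (-0.10 to 0.12) and -0.03 in siMk5 (-0.14 to 0.08), so that each interval lay within the fold change of 1.3.

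Plin4, a perilipin of adipocytes and muscle, was expressed at a low level and rose. It had 15 to 88 counts per library. In siNtc, its level was 1.05, 2.33 and 1.94 CPM in BSA and 3.19, 3.24 and 3.18 CPM in PA, a log2 fold change of 0.78 (SE 0.22, FDR = 0.00339). It rose by 1.10 in siErk3 (SE 0.22, FDR = 7.35e-05) and by 0.92 in siMk5 (SE 0.21, FDR = 0.000427). Within each siRNA the PA libraries lay above the BSA libraries, but across siRNAs the lowest PA library, siErk3 replicate 1 with 2.06 CPM, lay below the highest BSA library, siNtc replicate 2 with 2.33 CPM.

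Plin5, the perilipin of oxidative tissues that tethers droplets to mitochondria, was near absent. It had 5 counts in 3 of the 18 libraries, 3 of them in siNtc PA replicate 3, and was not tested. At this depth no difference in Plin5 between groups was detectable.

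The composition of the perilipin transcripts therefore changed with PA, and the proteins on the droplets were not measured here. Plin2 made up 47.1% to 50.5% of the summed perilipin RPKM in the BSA libraries and Plin3 48.7% to 52.0%. In the PA libraries Plin2 made up 87.0% to 90.8% and Plin3 9.01% to 12.7%. The sum itself rose from a median of 42.3 RPKM in BSA (38.9 to 43.6) to 185 RPKM in PA (164 to 213). Within each siRNA, the Plin2 share of the 3 PA libraries lay above that of the 3 BSA libraries (exact permutation test, two-sided, p = 0.1, the smallest that 3 against 3 allow).

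**Figure D2:**
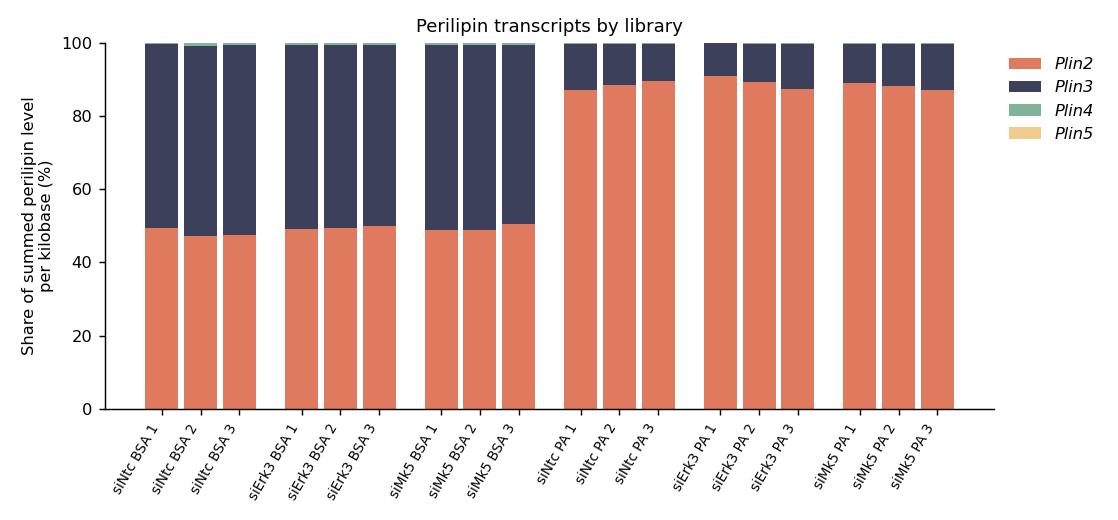
Share of Plin2, Plin3, Plin4 and Plin5 in the summed perilipin level per kilobase (percent, axis from 0 to 100) in each of the 18 libraries, as stacked bars. Plin2 and Plin3 take near-equal parts in BSA, with Plin2 at 47.1% to 50.5%, and Plin2 takes 87.0% to 90.8% in PA, while Plin4 and Plin5 are hardly visible.

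Neither acyltransferase of triglyceride synthesis was called higher with PA. Dgat1 ranged from 21.9 to 24.9 CPM in BSA and from 21.3 to 24.5 CPM in PA, with a log2 fold change of 0.00 in siNtc (95% interval -0.13 to 0.13), -0.03 in siErk3 (-0.15 to 0.10) and 0.10 in siMk5 (-0.03 to 0.23). Dgat2 was lower than Dgat1 and had 21 to 78 counts per library. It had 2.32, 1.5 and 2.22 CPM in siNtc BSA and 1.39, 1.78 and 1.06 CPM in siNtc PA, which overlapped, with a log2 fold change of -0.47 (SE 0.23, FDR = 0.105). In siErk3 it had 2.83, 1.86 and 2.79 CPM in BSA and 1.36, 1.52 and 1.64 CPM in PA, and it fell by 0.73 on the log2 scale (SE 0.21, FDR = 0.00363). In siMk5 it had 2.05, 2.87 and 2.73 CPM in BSA and 1.124, 1.26 and 1.19 CPM in PA, and it fell by 1.09 (SE 0.23, FDR = 0.00018). The PA effect on Dgat2 was not called different between siErk3 and siNtc (difference in log2 fold change -0.27, 95% interval -0.91 to 0.37, FDR = 0.938) or between siMk5 and siNtc (-0.62, -1.29 to 0.05, FDR = 0.683). In siNtc, Dgat2 passed both criteria without BSA replicate 2, with -0.69 (FDR = 0.0259), and without PA replicate 2, with -0.69 (FDR = 0.0342). The ratio of Dgat1 to Dgat2 per kilobase had a median of 10.2 in BSA (7.70 to 16.8) and 17.5 in PA (13.8 to 22.2).

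For lipolysis, the lipase transcript changed little and that of its co-activator rose. Pnpla2 had 20.9, 24.8 and 25.3 CPM in siNtc BSA and 28.03, 29.2 and 29.6 CPM in siNtc PA. The log2 fold change was 0.28 in siNtc (SE 0.07, FDR = 0.00162), 0.26 in siErk3 (SE 0.07, FDR = 0.00168) and 0.20 in siMk5 (SE 0.07, FDR = 0.0224), which passed the FDR but not the fold change of 1.3. By the FDR alone, 6 members passed in siNtc, 7 in siErk3 and 7 in siMk5, beside 45.1%, 47.1% and 44.3% of all genes tested. Abhd5 had 32.9, 33.6 and 32.5 CPM in siNtc BSA and 53.0, 52.7 and 56.5 CPM in siNtc PA, with no overlap. The log2 fold change was 0.71 in siNtc (SE 0.06, FDR = 5.55e-12), 0.77 in siErk3 (SE 0.05, FDR = 3.02e-13) and 0.74 in siMk5 (SE 0.06, FDR = 1.95e-12). Per kilobase, the ratio of Abhd5 to Pnpla2 went from a median of 0.664 in BSA (0.624 to 0.801) to 0.949 in PA (0.898 to 0.979).

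The transcripts of the lipase inhibitors moved in opposite directions. G0s2 had 56.3, 68.5 and 66.8 CPM in siNtc BSA and 38.6, 35.2 and 32.8 CPM in siNtc PA. In siErk3 it had 67.1, 69.1 and 65.0 CPM in BSA and 26.8, 35.1 and 39.6 CPM in PA, and in siMk5 57.2, 63.5 and 70.1 CPM in BSA and 30.2, 34.3 and 33.8 CPM in PA. All PA libraries thus lay below all BSA libraries, and siErk3 PA replicate 1 was the lowest. G0s2 fell by 0.85 on the log2 scale in siNtc (SE 0.09, FDR = 3.91e-09), by 0.99 in siErk3 (SE 0.09, FDR = 9.63e-11) and by 0.95 in siMk5 (SE 0.09, FDR = 4.48e-10). Hilpda had 6.25, 5.33 and 5.91 CPM in siNtc BSA and 13.9, 16.5 and 19.3 CPM in siNtc PA. In siErk3 it had 5.58, 5.52 and 5.33 CPM in BSA and 22.9, 18.02 and 15.3 CPM in PA, and in siMk5 5.19, 5.64 and 4.95 CPM in BSA and 17.98, 16.2 and 16.0 CPM in PA. The lowest PA library was more than 2 times above the highest BSA library, and the PA libraries were spread widely. Hilpda rose by a log2 fold change of 1.51 in siNtc (SE 0.13, FDR = 2.48e-11), 1.78 in siErk3 (SE 0.12, FDR = 1.28e-13) and 1.67 in siMk5 (SE 0.13, FDR = 3.15e-12).

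Set against each other per kilobase, G0s2 exceeded Hilpda by a median factor of 15.2 in BSA (11.4 to 17.9) and of 2.68 in PA (1.48 to 3.52). The ratio of G0s2 to Pnpla2 was 9.08 in BSA (7.80 to 9.60) and 3.84 in PA (2.78 to 4.78), and that of Hilpda to Pnpla2 was 0.59 in BSA (0.501 to 0.820) and 1.54 in PA (1.36 to 1.88). For each of these ratios the media did not overlap (exact permutation test within each siRNA, two-sided, p = 0.1, the smallest possible). Hence G0s2 remained the more abundant inhibitor transcript in PA in all 9 libraries, although its excess over Hilpda was smaller.

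**Figure D3:**
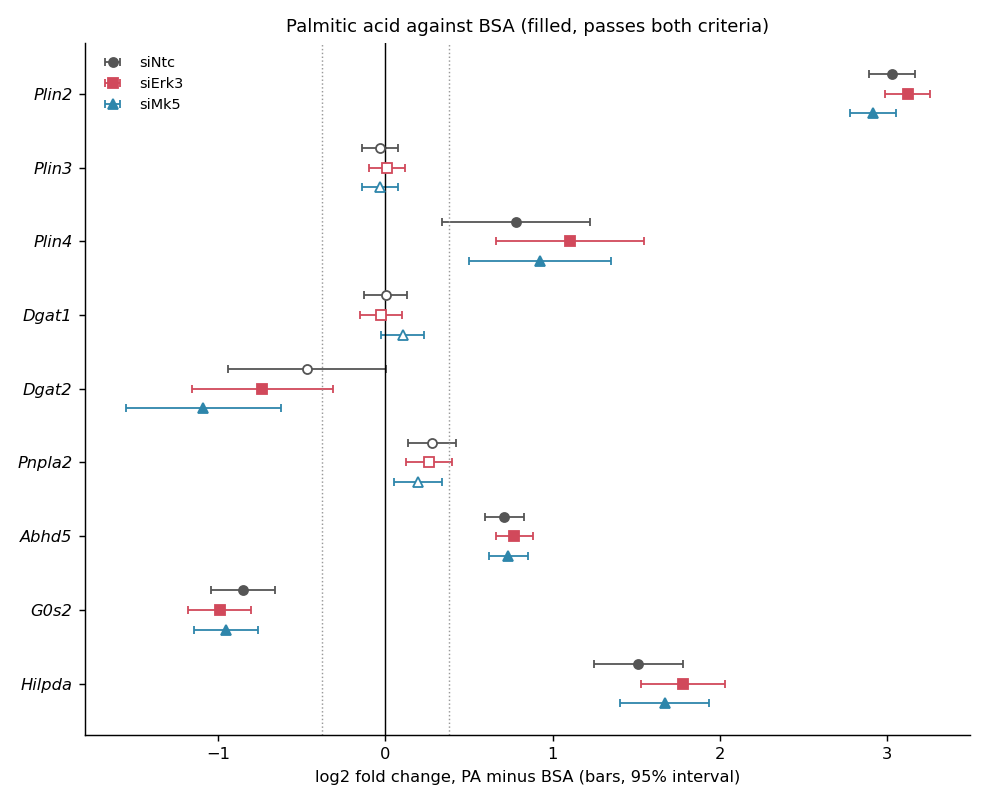
Log2 fold change of PA against BSA for the 9 tested genes with siNtc (circles), siErk3 (squares) and siMk5 (triangles), with bars for the 95% interval. Filled symbols pass both criteria, and dotted lines mark the fold change of 1.3. Plin2 stands at 2.91 to 3.12, Hilpda at 1.51 to 1.78 and G0s2 at -0.99 to -0.85, and Plin3 and Dgat1 lie between -0.03 and 0.10.

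At the RNA level, no member was called changed by silencing of Erk3 or Mk5 in either medium. For protein, the paper reports from proteomics in BSA that perilipin-2, encoded by Plin2, was markedly reduced with either silencing. Protein was not measured in these libraries. The comparisons of siErk3 and of siMk5 share the siNtc libraries of their medium. With siErk3, 0 of the 9 tested members passed in BSA and 0 in PA (edgeR), against 0.785% and 0.556% of all genes tested. With siMk5, 0 passed in BSA and 0 in PA, against 0.0643% and 0.547%. DESeq2 called 0 in each of these comparisons, and 1 member had an unadjusted p below 0.05 with siErk3 in BSA (Pnpla2), 1 with siErk3 in PA (Plin2) and 0 with siMk5 in either medium. Beside shares this low, 0 of 9 is not a result about the members.

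The intervals of the silencing effects were narrow for the abundant members and wide for the scarce ones. In PA, the log2 fold change of Plin2 was 0.16 with siErk3 (95% interval 0.04 to 0.28, FDR = 0.377) and -0.01 with siMk5 (-0.13 to 0.12, FDR = 1). In BSA it was 0.07 with siErk3 (-0.07 to 0.20) and 0.11 with siMk5 (-0.03 to 0.25), although all 3 libraries of either silencing lay above all 3 siNtc libraries there. The same held in BSA for Pnpla2 with either silencing, whereas for Dgat1 all siMk5 libraries lay below those of siNtc. How many of all genes separate in this way was not counted. For Plin2, Plin3, Dgat1, Pnpla2, Abhd5 and G0s2, each of the 4 intervals lay inside the fold change of 1.3. Those of Plin4 and Dgat2 reached beyond it in every comparison. For instance, the interval of Plin4 with siErk3 in BSA ran from -0.92 to 0.08 and that of Dgat2 with siMk5 in PA from -0.77 to 0.26, so that changes of this size could not be told from none. Hilpda had a log2 fold change of 0.19 with siErk3 in PA (-0.03 to 0.41, FDR = 0.679) and 0.02 with siMk5 in PA (-0.20 to 0.24).

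**Figure D4:**
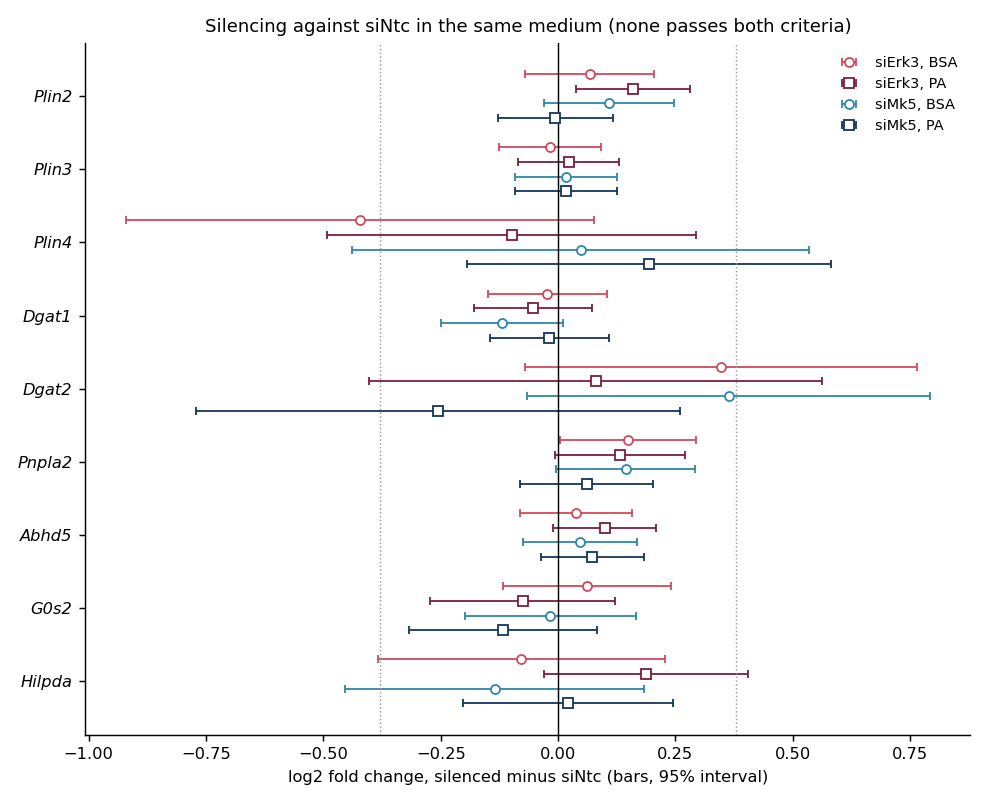
Log2 fold change of siErk3 (red) and siMk5 (blue) against siNtc in BSA (circles) and in PA (squares) for the 9 tested genes, with bars for the 95% interval and dotted lines at the fold change of 1.3. No value passes both criteria, and the intervals of Plin4 and Dgat2 are the widest, down to -0.92 and up to 0.79.

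Compared directly, siErk3 and siMk5 differed in 0 of the 9 members in BSA and in 0 in PA (edgeR and DESeq2), beside 0.588% and 1.03% of all genes tested. Plin2 in PA was the 1 member with an unadjusted p below 0.05, with a log2 fold change of 0.17 for siErk3 over siMk5 (95% interval 0.04 to 0.29, FDR = 0.249), and 0 had one in BSA. The size of the PA effect was then compared between siRNAs by the interaction term. Here 0 members passed for siErk3 and 0 for siMk5 in edgeR and in DESeq2, with 0 at an unadjusted p below 0.05, beside 0.0367% and 0.211% of all genes tested. The PA effect on Plin2 differed by 0.09 between siErk3 and siNtc (95% interval -0.09 to 0.28) and by -0.11 between siMk5 and siNtc (-0.30 to 0.07), whereas for Hilpda the differences were 0.27 (-0.11 to 0.64) and 0.16 (-0.23 to 0.55).

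Among the PA libraries, replicate 1 of siErk3 stood at the edge for most members. Of the 9 PA libraries it had the highest Plin2, Hilpda, Abhd5 and Pnpla2 and the lowest G0s2, Plin3, Plin4 and Dgat1. Replicate 1 of siNtc had the lowest Plin2, Hilpda and Pnpla2 in PA. For Plin2 these were the highest siErk3 and the lowest siNtc library in PA, so that leaving out both was bound to shrink that difference. When both libraries were left out, a choice made after their values were seen, Plin2 with siErk3 against siNtc in PA went from 0.16 to 0.03 (FDR = 0.929). The members changed by PA then still numbered 5 in siNtc and 6 in siErk3.

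The genes whose pattern over the 18 libraries came closest to each member were found by Pearson's r of log2 CPM among 10552 other genes with a mean of at least 5 CPM (10553 for Plin4 and Dgat2, which lie below that mean). Since the libraries fall into the 2 media, an r over all of them mostly reflects the step between media. It ran from 0.64 to 0.9996 over the 3 nearest genes of each member. The values given here are those within each medium, over 9 libraries each that share depth and silencing groups. The PA libraries include replicate 1 of siErk3 and of siNtc, which stood at the edge above, and r without them was not computed. Closest to Plin2 were Hyou1, a chaperone of the endoplasmic reticulum (0.68 within BSA and 0.93 within PA), Sqstm1, which encodes the autophagy receptor p62 (0.59 and 0.96), and Hspa5, which encodes the chaperone BiP (-0.14 and 0.93). Closest to G0s2 were Loxl1, Pcolce and Col1a2, which act in the extracellular matrix, with r from 0.87 to 0.90 within BSA and from 0.93 to 0.96 within PA. Hilpda came closest to Rabggtb, Wdr4 and Atp6v1h, with 0.56 to 0.71 within BSA and 0.87 to 0.89 within PA. Abhd5 came closest to Atp6v1b2, Bltp3b and Slc6a8, with 0.45 to 0.70 within BSA and 0.82 to 0.88 within PA. For Pnpla2, the genes Rpl7a, Rps27 and Eef1a1 of the translation machinery had 0.89 to 0.95 within BSA and 0.82 to 0.94 within PA. The neighbours of Plin3 were Cd2bp2, Pithd1 and Adck5 (0.77 to 0.82 and 0.82 to 0.90), and those of Plin4 were Aldh3a2, Rasa3 and Tyk2 (0.67 to 0.72 and 0.65 to 0.79). For Dgat1 they were Gm29216, Cops7b and Hemk1 (0.53 to 0.86 and 0.52 to 0.72), and for Dgat2 Hnrnpd, Rangap1 and Zfhx2 (0.75 to 0.82 and 0.55 to 0.88).

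The members were also set beside 41 other genes of droplets and glycerolipids, of which 36 were tested. In PA, 9 of the 36 rose and 2 fell in siNtc, 9 rose and 2 fell in siErk3, and 7 rose and 4 fell in siMk5. That is 30.6% of the 36 with each siRNA, close to the shares of all genes tested given above (30.6%, 32.1% and 29.7%), so that the count is not a result about these genes. DESeq2 called 11, 11 and 8 of them. The median log2 fold change over the 36 was 0.21, 0.20 and 0.20, against -0.03, -0.01 and -0.01 over all genes tested.

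In glycerolipid synthesis, 3 of 13 tested genes rose with each siRNA and 1 fell in siMk5, which is 23.1%, 23.1% and 30.8% of the 13, beside 30.6%, 32.1% and 29.7% of all genes. Gpat3, a glycerol-3-phosphate acyltransferase of the endoplasmic reticulum, went from 3.39 ± 0.264 CPM in siNtc BSA to 14.5 ± 0.46 CPM in siNtc PA (SD, n = 3), a log2 fold change of 2.08 (SE 0.13, FDR = 9.43e-15), with 2.33 in siErk3 and 2.01 in siMk5. Its relative Gpat4 rose by 0.74 (SE 0.05, FDR = 9.13e-14), and Lpin3, a phosphatidate phosphatase that makes diacylglycerol, rose by 1.24 (SE 0.06, FDR = 6.66e-18). In contrast, the mitochondrial acyltransferase gene Gpam had a log2 fold change of -0.28 in siNtc (FDR = 0.000147), which did not pass the fold change. Mogat2, a monoacylglycerol acyltransferase at less than 1 CPM, had a log2 fold change of -1.23 in siMk5 (FDR = 0.0338), which passed in edgeR but not in DESeq2 (FDR = 0.0674), and of -0.997 in siNtc (FDR = 0.115).

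Of the genes that activate fatty acids with coenzyme A, Acsl1 rose with each siRNA (0.57 in siNtc, SE 0.07, FDR = 1.05e-07) and Acsl4 passed in siNtc (0.42, SE 0.05, FDR = 1.71e-08), with 0.29 in siErk3 (FDR = 7.71e-06) and 0.35 in siMk5 (FDR = 3.75e-07), below the fold change of 1.3. Acsl6 fell with each siRNA, from 50.3 ± 1.35 to 24.2 ± 0.546 CPM in siNtc (SD, n = 3), by 1.05 on the log2 scale in siNtc, 0.66 in siErk3 and 0.65 in siMk5. The difference in the Acsl6 effect was 0.40 between siErk3 and siNtc (edgeR FDR = 0.167) and 0.40 between siMk5 and siNtc (edgeR FDR = 0.0675), and DESeq2 called both (FDR = 0.0499 and 0.0197). Among the 6 other lipolysis genes tested, Mgll, the monoacylglycerol lipase of the last step, fell by 0.80 in siNtc (SE 0.06, FDR = 1.69e-12), by 1.10 in siErk3 and by 0.99 in siMk5. Lipa, the lysosomal acid lipase, rose in siNtc (0.67, FDR = 1.37e-10) and siErk3 (0.50, FDR = 2.46e-08) and had 0.32 in siMk5 (FDR = 6.43e-05), below the fold change of 1.3. Lipe, the hormone-sensitive lipase, passed in siErk3 (0.40, FDR = 0.00457), with 0.31 in siNtc (FDR = 0.0274) and 0.15 in siMk5 (FDR = 0.332).

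Soat1, which esterifies cholesterol for storage, rose by 0.91 in siNtc (SE 0.05, FDR = 1.78e-16), and the scarce Soat2, at 0.53 CPM in siErk3 PA, was called higher in siErk3 (1.94, FDR = 0.0011). In siMk5, Soat2 passed in edgeR (1.65, FDR = 0.0181) but not in DESeq2 (FDR = 0.0587). Of the 8 droplet assembly genes, Aup1 rose with each siRNA (0.42 in siNtc, FDR = 2.4e-08) and Ldaf1, the partner of seipin, passed in siNtc (0.61, FDR = 2.32e-08), with 0.35 in siErk3 (FDR = 7.58e-05) and 0.36 in siMk5 (FDR = 0.00011), just below the fold change of 1.3. Cideb, from the family that fuses droplets, was at 0.0965 CPM in siMk5 PA and passed there in edgeR (-1.70, FDR = 0.0301) but not in DESeq2 (FDR = 0.0666). In edgeR, the PA effect was called different between siErk3 and siNtc in 0 of the 36 genes and between siMk5 and siNtc in 0, with 3 and 6 at an unadjusted p below 0.05, and DESeq2 called Acsl6 in both (0.41, FDR = 0.0499 with siErk3, and 0.40, FDR = 0.0197 with siMk5) and no other of the 36. With silencing, 0 of the 36 genes changed in edgeR and 0 in DESeq2 in any of the 4 comparisons, with 5 and 3 at an unadjusted p below 0.05 for siErk3 in BSA and PA, and 2 and 6 for siMk5. The shares of all genes are those given above for the members, from 0.0643% to 0.785%. By the FDR alone, Mgll passed with siErk3 in BSA (0.27, FDR = 0.00833), beside 1.21% of all genes tested, and Soat1 with siMk5 in PA (-0.18, FDR = 0.0434), beside 0.776%.

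**Figure D5:**
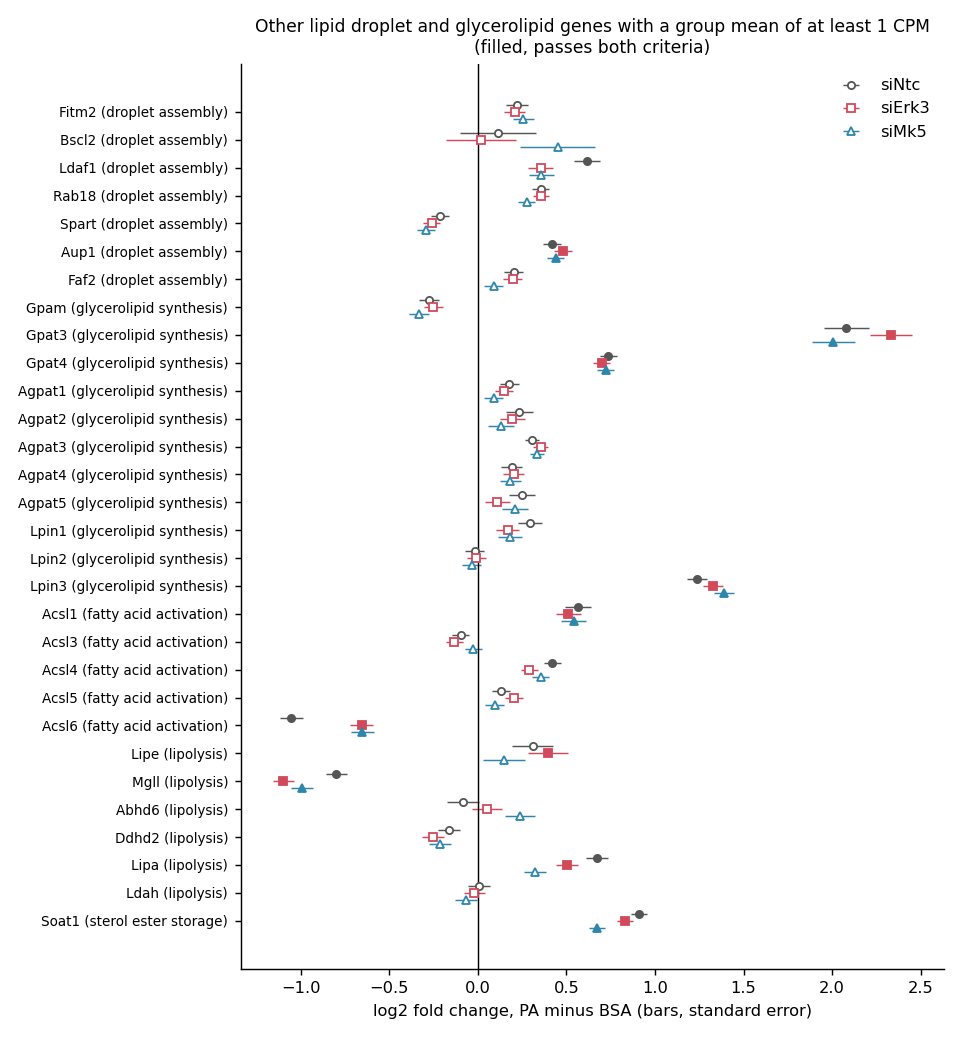
Log2 fold change of PA against BSA (bars, SE) for the 30 other lipid droplet and glycerolipid genes with a group mean of at least 1 CPM, by siRNA, with filled symbols for values that pass both criteria. Gpat3 stands out at 2.01 to 2.33 and Lpin3 at 1.24 to 1.39, and Mgll and Acsl6 lie below 0 with each siRNA.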

How the data were processed

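The 10 members, the gene lists and the tests were chosen with earlier results of these data known. The authors deposited counts of read pairs per gene, without normalization, for 18 libraries of poly(A) RNA. According to the methods, reads were trimmed and aligned to GRCm39 with STAR. Per the file headers, featureCounts 2.0.0 used the Ensembl 105 annotation, strand setting 2 and a mapping quality of at least 3, and read pairs over exons of several genes were not counted. The labels also name mm10 and Salmon, which the header does not. The log2 values that the authors deposited besides are the same counts, scaled by library with 1 added, and were only checked. Columns of other samples numbered 0.

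Groups and replicate numbers came from the labels, and symbols from GENCODE M39. A minimum of 10 counts summed over all libraries, the filter of the methods, left 21772 genes. With R 4.3.3 and edgeR 4.0.16, 1 quasi-likelihood fit over the 6 groups with TMM factors gave all comparisons, and p-values were adjusted by Benjamini-Hochberg. RPKM divides CPM by all exonic bases of a gene, so that isoform use can shift it. Counting precision is lowest for Plin4 and Dgat2, with 15 to 88 and 21 to 78 counts per library. The fit was first tested on simulated data. The text names all members, the listed droplet genes that passed, the check genes, some of the markers and the 3 nearest genes of each member. Gpam was named after its values were seen.

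The alternatives were DESeq2 1.42.0 (the tool of the methods), its size factors in edgeR, other filters on low counts, a replicate block, the FDR alone, only the groups compared, and leaving out each library. Leaving out 2 PA libraries together was added after the data were seen.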

Additional observations from a re-analysis of the deposited data

How the results depend on the processing

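No alternative moved the number of members changed by more than 1.5 times. In PA against BSA it was 5 or 6 in siNtc and 6 in siErk3 and siMk5 when each library was left out in turn, and with the FDR alone it was 6, 7 and 7 by the addition of Pnpla2. DESeq2, its size factors, the filters on low counts and the fit to the groups compared gave 5, 6 and 6. In silencing, between siErk3 and siMk5 and in the interactions it was 0 under each of these. Of the 99 member values, the 17 that passed kept their direction and stayed past both criteria, and 34 of the 82 that did not pass changed sign in at least 1 alternative, none of them past the criteria. Plin2 with siErk3 against siNtc in PA had an FDR of 0.035 without a filter on low counts and of 0.0368 without siErk3 PA replicate 3, at log2 fold changes of 0.16 and 0.24, below the fold change of 1.3. It ranged from 0.09 to 0.24 with 1 library left out, and was lowest without siNtc PA replicate 1. The cause was not tested. Scaling by DESeq2 size factors moved the median of all genes by at most 0.015.

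With the replicate block, that is, the replicate number as a term in the fit, the members changed numbered 5 in siNtc, 6 in siErk3 and 6 in siMk5, and 0 in the other comparisons. Libraries with the same number deviated from their groups with correlations of -0.61 to 0.52 over 10553 genes, and in 0 comparisons were all 3 pairs above 0.1. Deviations from a mean of 3 libraries depend on each other, so that these correlations cannot decide whether same-numbered libraries shared a culture or batch. The labels give only the number. Depth limits Plin5, Plin4 and Dgat2.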
